A study of Homo sapiens with 6 samples.

Results

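DEAD and DEAH box RNA helicases, the enzymes whose gene symbols begin with DDX and DHX, were followed in HEK293 cells, a line grown from human embryonic kidney. Their clusters were taken from the array's probe annotation by symbol, without use of the measured values. A cluster is the set of probes that an Affymetrix Gene 1.0 ST array carries for 1 transcribed locus. The helicases known to be induced by interferon (RIGI, DDX60, DDX60L and DHX58), as well as DDX41 and the Y-linked copy, were left out. This gave 54 of the 33297 clusters. Of these, 47 carry a single symbol and stand for 45 genes. The other 7 carry several symbols, so their signal cannot be assigned to 1 gene: 3 are annotated to DDX11, DDX12P and LOC642846 together, 3 to DDX39B and a read-through transcript of it, and 1 to DDX47 and APOLD1. Counted once per locus, the members make 48 loci.

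The 6 arrays fall into 3 control and 3 treatment arrays by their titles. The study asked which mediators accompany an anti-HIV effect of transfection with an empty plasmid, pCMV9. For the control cells the source field names a transient vector, and for the treatment cells a Neo vector, whereas the design text contrasts untreated with pCMV9-transfected cells. The names control and treatment are used for that reason. All 6 arrays carry total RNA of the same line, and no label gives a time, a dose or separate cultures for the replicates, so every p-value refers to the spread between arrays alone, and that spread may be technical.

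DEAD and DEAH box proteins share a helicase core that binds RNA and ATP, and they are named for the amino acids of their ATP-binding motif. DEAD box members mostly pry open short duplexes or strip proteins from RNA, while DEAH box members move along a strand. Together they serve nearly every step of an RNA's life, from splicing and ribosome assembly to export, translation and decay. Several are also used by HIV to move its RNA out of the nucleus or to pack it, and some bind foreign nucleic acid.

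No member passed the test for a difference between the groups. Of the 54 clusters, 0 passed limma's test at an adjusted p of 0.05, where 0.372% of all clusters passed. At an unadjusted p under 0.05 there were 2, both lower in the treatment arrays: DHX30, which works on mitochondrial RNA, and DDX49, a ribosome assembly factor. That is 3.7% of the members, against 7.3% of all clusters in either direction and 2.29% lower. The fitted changes ran from -0.56 to 0.32 on the scale of log2(intensity + 16), treatment minus control, with a median of -0.16 over the 54 clusters and 0.01 over all clusters. Several loci have repeated clusters, and counted once per locus the median was -0.11. It was -0.06 over the 45 members kept with 1 cluster per gene. That setting also drops the clusters with several symbols, whose changes were all below 0. Over all clusters at or above the median level, a class that holds 51 of the 54, the median was -0.05. In bulk RNA, a lower share of cells and less RNA per cell cannot be told apart.

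The arrays left little room for large changes in these genes. In all 54 clusters the 95% interval of the change lay between -1 and 1, that is, within a 2-fold change either way. The same held in 93.1% of all clusters and 95.9% of those at or above the median level. The lowest bound of any member was -0.98 (DHX30) and the highest 0.80 (DDX4, which was under background). The stricter limit of 1.5-fold in either direction held the whole interval of 16 members, and 46 had an upper bound below a 1.5-fold rise. Each interval stands for its own cluster and is not adjusted for their number. With an offset of 1 or none, 47 of the 54 lay within 2-fold, and the 7 that did not included the 3 dim germ cell genes named below.

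The helicases that interferon induces showed what a response on these arrays looks like. RIGI, the cytosolic sensor of viral RNA, read 259.8, 289.04 and 297.3 in control and 1429, 2048 and 1805 in treatment arrays. RIGI, IFIH1, DDX60 and DDX60L rose (limma, adjusted p from 1.9e-05 to 2.83e-05), with log2 changes from 2.44 to 2.62. The lowest bound of their intervals was 1.99 (DDX60), while the highest upper bound of a member above background was 0.69 (DDX59). DHX58 passed as well (adjusted p = 0.00163), but its control mean of 24.6 was under the background band described with the germ cell members, so the size of its change is not set beside the others. These genes were known from earlier results of these data to have risen, so the contrast is a description, and the difference between the lists was not tested.

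**Figure D1:**
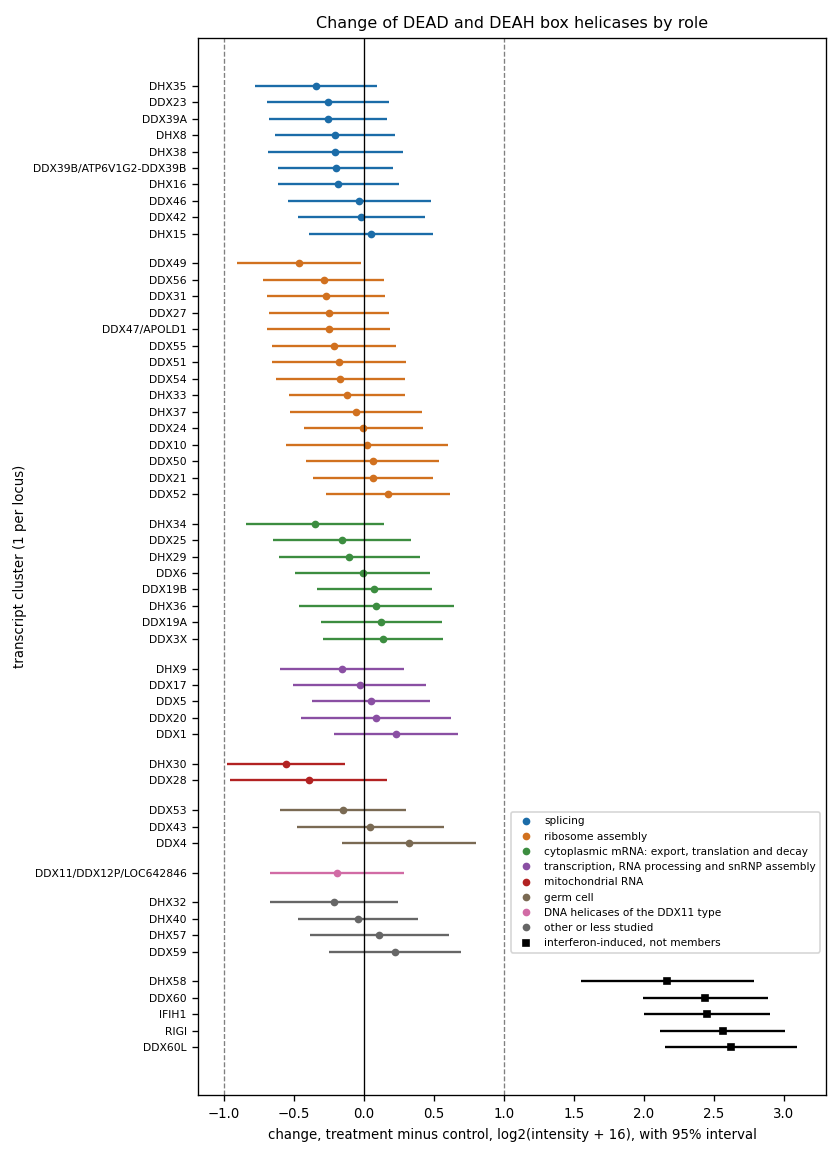
Change of each locus (points, with the 95% interval as a line) in log2(intensity + 16), treatment minus control, 3 arrays per group, coloured by role; dashed lines mark -1 and 1. All member intervals stay between the dashed lines, and the interferon-induced helicases at the bottom lie beyond them. The controls of DHX58 and of the members of the germ cell list were under the background band, so their changes depend on the offset.

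DHX30 had the lowest p of all members. It is a DEAH box protein of mitochondrial RNA granules that is also known as a partner of the antiviral protein ZAP. Its intensity read 675.5, 657.7 and 606.3 in control and 390.9, 426.6 and 490.4 in treatment arrays. Every treatment array lay below every control array. The means of 646.5 ± 35.9 and 435.96 ± 50.4 (SD, n = 3) differ by -0.56 ± 0.196 (SE) on the log2 scale, with a 95% interval from -0.98 to -0.13 and an adjusted p of 0.602 by limma. Its unadjusted p of 0.0137 stayed under 0.05 in 16 of 17 other settings of the analysis. The exception was the fit without treatment replicate 1, which gave 0.0512.

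DDX28, the other mitochondrial member and a factor of mitochondrial ribosome assembly, read 428.7, 249.3 and 319.9 in control and 201.3, 202.6 and 351.6 in treatment arrays. Treatment replicates 1 and 2 lay below all controls and replicate 3 within them. The change was -0.39 with an interval from -0.96 to 0.17. Without treatment replicate 3 it was -0.65, with an unadjusted p of 0.0208 and an adjusted p of 0.454 by limma.

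DDX49 read 191, 228.3 and 177.8 in control and 120.1, 138.03 and 163.4 in treatment arrays, and the groups did not overlap. The change was -0.46 ± 0.206 (SE), with an unadjusted p of 0.0424 and an adjusted p of 0.68 by limma. That unadjusted p was under 0.05 in 6 of 17 other settings. Without treatment replicate 3, 4 of the 54 members were at an unadjusted p under 0.05, DDX28 and DDX4 (higher) being added, but so were 10.2% of all clusters. Without treatment replicate 1 there were 0, beside 8.59% of all clusters. Without control replicate 2 or treatment replicate 2 there was 1, DHX30, beside 5.54% and 4.92%.

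**Figure D2:**
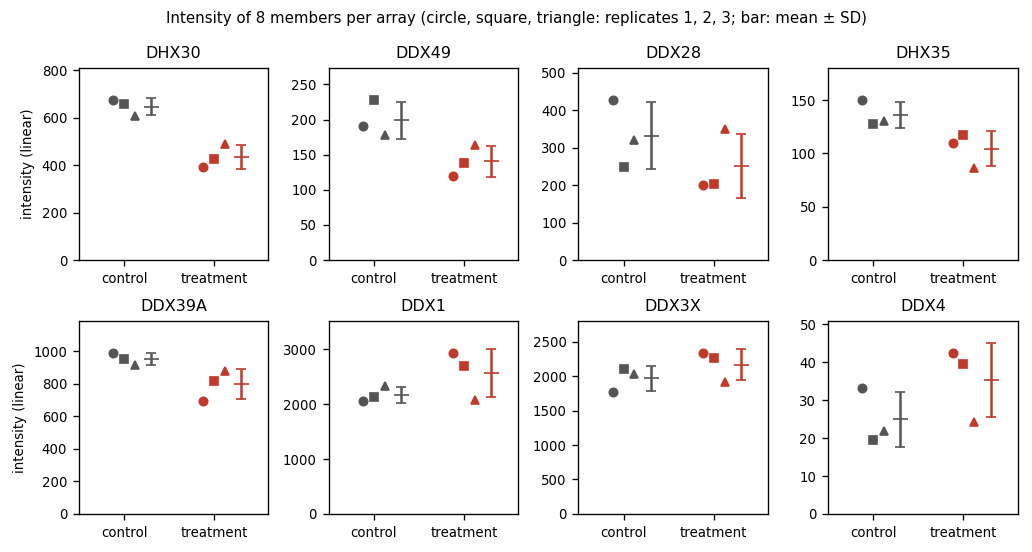
Linear intensity of 8 members in each array, with control in grey and treatment in red; circles, squares and triangles are replicates 1, 2 and 3, and bars give the mean ± SD (n = 3). DHX30, DDX49, DHX35 and DDX39A have separate groups, while in DDX28, DDX1, DDX3X and DDX4 treatment replicate 3 falls among the controls.

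Where groups did not overlap, the treatment arrays were always the lower ones. The same held in the lists of related helicases and partners given below. All 3 treatment arrays lay below all 3 controls in 10 of the 54 clusters, or 8 of 48 loci, and above them in 0. Over all clusters these shares were 7.1% lower and 7.47% higher, and among the clusters at or above the array's median level 10.1% and 5%. The member shares were 18.5% of clusters and 16.7% of loci for the lower direction. Beside DHX30 and DDX49, these were DHX35, DDX23, DDX39A and the DDX39B locus of the splicing list and DDX31 and DDX27 of the ribosome assembly list.

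Splicing factors supplied 4 of those 8 loci. Of 10 splicing members, 9 had a change below 0 and the median was -0.20, but 0 reached an unadjusted p under 0.05. A change below 0 was found in 48.2% of all clusters and 57.6% of those at or above the median level. DHX35, a DEAH box protein found in spliceosomes, read 150.4, 127.7 and 130.0 in control and 109.5, 117.7 and 86.2 in treatment arrays. Its change was -0.34 with an interval from -0.78 to 0.09. DDX23, the helicase that readies the U4/U6.U5 tri-snRNP, read 1211, 1011 and 879.2 in control and 855.9, 849.2 and 862.4 in treatment arrays. The treatment arrays lay within a narrow band just under the lowest control, and the change was -0.26.

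DDX39A and DDX39B are close relatives that act in splicing and mRNA export. DDX39A gave 985.5, 951.1 and 912.6 against 696.6, 815.3 and 877.1, a change of -0.26. The 3 clusters annotated to DDX39B and its read-through transcript gave -0.20, -0.19 and -0.19, and in each of them the groups were apart. They are near copies of 1 locus and count as 1 measurement. The remaining splicing members were the disassembly and remodelling factors. DHX8, DHX16 and DHX38 gave changes of -0.21, -0.18 and -0.20 with overlapping groups. DHX15, which takes spliceosomes apart and also acts in sensing of viral RNA, gave 0.05, DDX46, which acts at the branch site, gave -0.03 and DDX42, an SF3B-associated helicase, gave -0.02.

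Ribosome assembly helicases, which act mainly in the nucleolus, had a median change of -0.17 over 15 loci. Of these, 11 were below 0, beside 48.2% of all clusters and 57.6% of those at or above the median level. DDX31, a nucleolar member, read 289.8, 258.9 and 227 in control and 203.1, 213.7 and 214.5 in treatment arrays. DDX27 gave 623.2, 500.8 and 502.4 against 472.0, 462.4 and 419.7. In both genes all treatment arrays were lower, by changes of -0.27 and -0.25, and neither reached an unadjusted p under 0.05. DDX56 gave -0.29, DDX55 -0.21, DDX51 -0.18, DDX54 -0.17, DHX33 -0.12 and DHX37 -0.06, and the cluster shared by DDX47 and APOLD1 -0.25, all with overlapping groups.

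The remaining ribosome assembly members lay near or above 0. DDX21, a nucleolar helicase that binds ribosomal RNA and is used by HIV Rev, read 1792, 1737 and 1823 in control and 2154, 1867 and 1619 in treatment arrays. Replicates 1 and 2 of the treatment were above the controls and replicate 3 below them. Its close relative DDX50 gave 0.06, as against 0.07 for DDX21, while DDX52 gave 0.17, DDX10 0.02 and DDX24, which also affects packaging of HIV RNA, -0.01.

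Cytoplasmic members showed no common direction. Of 8 genes of mRNA export, translation and decay, 4 had a change below 0, the median was 0.03 and no groups were apart. DDX3X, which helps translate structured mRNAs and exports HIV RNA with Rev, read 1767, 2108 and 2031 in control and 2330, 2258 and 1920.5 in treatment arrays, a change of 0.14 (-0.29 to 0.56). DDX6, the helicase of decapping and P-bodies, gave -0.01 (-0.49 to 0.47). DHX36, which unwinds G-quadruplexes, gave 0.09 and ran from 143 in treatment replicate 3 to 291.5 in replicate 2. DHX34, a factor of nonsense-mediated decay, had the lowest change of this list, -0.35 (-0.84 to 0.15). Without control replicate 1 that change was -0.54, with an unadjusted p of 0.0376 and an adjusted p of 0.821 by limma. DHX29, which helps ribosomes scan structured leaders, gave -0.10 and DDX25, better known from testis, -0.16.

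DDX19A and DDX19B are close relatives that act at the nuclear pore, where they strip proteins from exported mRNA. DDX19B gave a change of 0.07 (-0.34 to 0.49). The brighter DDX19A cluster read 427.6, 504.8 and 526.7 in control and 586.2, 545.9 and 464.6 in treatment arrays, a change of 0.13 (-0.31 to 0.56). The other DDX19A cluster gave 234.1, 242.2 and 288.3 against 229, 247.9 and 195.4, a change of -0.17 (-0.61 to 0.26). The clusters of this 1 gene thus have opposite signs, with wide overlap of their intervals. The second DHX16 cluster repeats the values of the first on every array.

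Nuclear helicases of transcription and RNA processing had a median change of 0.05 over 5 genes. They included the highest change of any member above background, that of DDX1. DDX1, which acts in tRNA ligation and as a Rev cofactor, read 2048, 2127 and 2337 in control and 2921, 2701 and 2081 in treatment arrays. Treatment replicates 1 and 2 were above all controls, replicate 3 was between them, and the change was 0.23 (-0.22 to 0.67). The paralogs DDX5 and DDX17, which act in microRNA processing and as transcription cofactors, gave 0.05 and -0.03. DHX9, also called RNA helicase A and packed into HIV particles, gave -0.16, and DDX20, a component of the SMN complex, 0.09.

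The 3 members of the germ cell list were not above background. DDX25, better known from testis but listed with the cytoplasmic members, was above it, with a control mean of 287. Olfactory receptor genes, which HEK293 cells are not known to use, gave a background band, taken as the 95th percentile of 381 such clusters, at 50.7 in the control arrays. The 3 members under it were DDX4, DDX43 and DDX53. DDX4 (vasa), the germ line helicase, read 33.2, 19.6 and 22.0 in control and 42.3, 39.5 and 24.2 in treatment arrays. Its change of 0.32 (-0.16 to 0.80), the highest among the members, cannot be told from background. DDX43 gave 14.9 ± 10.3 and 14.8 ± 2.38, and DDX53 11.8 ± 4.93 and 8.87 ± 2.7 (SD, n = 3).

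Of the last 5 loci, the one annotated to DDX11, DDX12P and LOC642846 is that of a DNA helicase of sister chromatid cohesion and its copies. Its clusters, 2 of which repeat each other's values, gave -0.19 each. Among less studied members, DDX59 gave 0.22, DHX57 0.11, DHX40 -0.04 and DHX32 -0.21, all with overlapping groups.

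Members reported as HIV cofactors did not move together. The list of 9 (DDX1, DDX3X, DDX5, DDX6, DDX17, DDX21, DDX24, DHX9 and DHX30) had a median of -0.01, with 5 below 0, and DHX30 was its only member with groups apart. Set against the control mean, this list had medians of 0.12, 0.10 and -0.15 in treatment replicates 1, 2 and 3. Members reported to sense nucleic acid (DDX1, DDX3X, DDX21, DHX9, DHX15, DHX33 and DHX36) had a median of 0.07 over 7 genes, from -0.16 to 0.23, and 0 reached an unadjusted p under 0.05. The 2 lists share 4 genes (DDX1, DDX3X, DDX21 and DHX9).

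Treatment replicate 3 differed from the other treatment arrays across many members, as it did across bright clusters at large. It was the lowest of the treatment arrays in 33 of 54 clusters, 61.1%, against 43.5% of all clusters and 51.2% of those at or above the median level. Relative to the control mean, the median over the 48 loci was -0.01, 0.01 and -0.22 in treatment replicates 1, 2 and 3. Clusters at or above the median level had medians of 0.02, -0.02 and -0.17. The median of replicate 3 minus the mean of the other treatment arrays was -0.11 over those clusters and -0.23 over the loci. A change below 0 was found in 38 of the 54 clusters (70.4%) and 66.7% of the loci, against 48.2% of all clusters and 57.6% of those at or above the median level. Without that array it was found in 30 of the 54, and the median change was -0.08. Leaving out control replicate 2 gave nearly the same median, -0.09, with 38 below 0.

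The shift of that array varied within the family, inside the range of -2.15 to 2.75 that it spanned over all clusters. Over clusters at or above the median level it ran from -1.91 to 2.49. Against the mean of treatment replicates 1 and 2, replicate 3 was lower by 0.79 in DHX36, 0.76 in both DDX10 and DDX46 and 0.74 in DDX20, on the log2 scale. It was higher by 0.75 in DDX28, 0.62 in DDX25 and 0.51 in DHX38. DDX46 gave 1421, 1249 and 781.6 in the treatment arrays, beside controls of 1062, 1154 and 1215. Across the 48 loci, the shift of treatment replicate 3 and that of control replicate 1 against the other controls had a Pearson's r of 0.45, with 0.22 over all clusters and 0.37 over those at or above the median level. These are correlations across genes on the same arrays, and genes are not independent replicates.

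**Figure D3:**
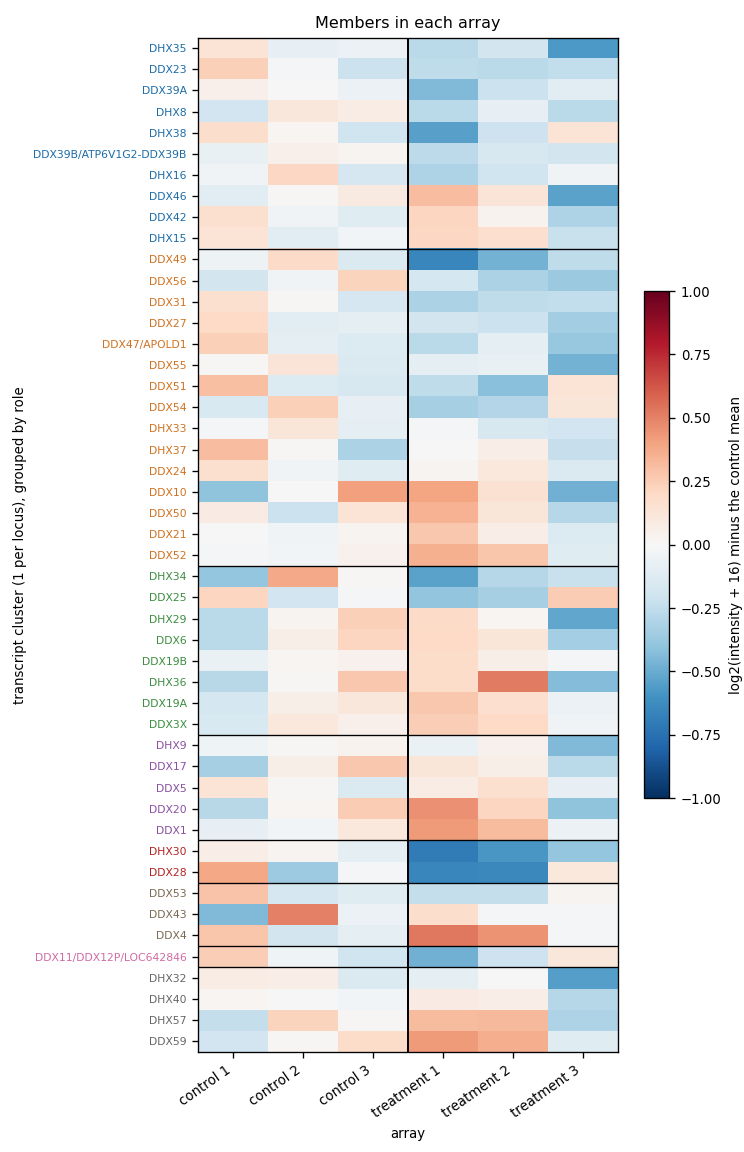
Each locus (rows, grouped by role) in each array (columns) as log2(intensity + 16) minus its control mean; red is higher and blue lower, on a scale from -1 to 1. The splicing rows at the top are mostly blue in the treatment arrays, and many rows are red in treatment replicates 1 and 2 but blue in replicate 3, as for DDX46, DDX10 and DDX20.

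**Figure D4:**
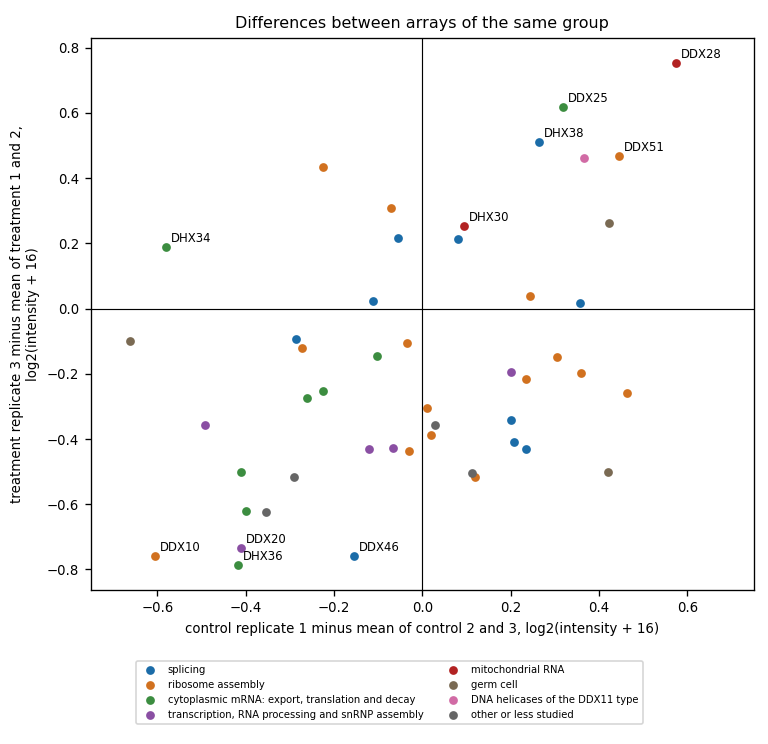
Difference of treatment replicate 3 from the mean of the other treatment arrays (vertical axis) against that of control replicate 1 from the other controls (horizontal axis), in log2(intensity + 16), 1 point per locus, coloured by role. The points run from DDX10 and DHX36 at the lower left to DDX28 at the upper right, with r = 0.45 over 48 loci.

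Related helicases and partner proteins had no passing member either. Among 12 measured helicases with other symbols, such as the spliceosomal SNRNP200 and the decay factor UPF1, 0 reached an unadjusted p under 0.05 and the median was -0.09. Over this and 5 partner lists (spliceosome, export and exon junction, translation and decapping, ribosome assembly, SMN complex and microprocessor), 78 of 88 listed genes were measured. Of the 78, 0 passed limma at an adjusted p of 0.05, where 0.372% of all clusters passed. At an unadjusted p under 0.05 there was 1, where 7.3% of all clusters met the rule. That gene was GEMIN8 of the SMN complex, named after its value was seen, at -0.49. The SMN complex and microprocessor list, which holds partners of DDX20, DDX5 and DDX17, had the lowest median of the 6 lists, -0.21. Of its 9 genes, 8 had a change below 0 and 4 had all treatment arrays below all controls. Over the 78 genes, 54 had a change below 0, against 48.2% of all clusters and 57.6% of those at or above the median level. The treatment arrays lay below all controls in 10 and above them in 0. Those shares were 7.1% and 7.47% of all clusters, and 10.1% and 5% at or above the median level.

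Promoter sequence was a feature that the selection did not use. RefSeq promoters of build GRCh38.p14, 250 bases before to 50 after each start, were matched for 45 of 49 member symbols. The interferon-stimulated response element was searched as GAAA, any 2 bases and GAAA again, on either strand. It occurred in 1 of 45 member promoters (2.22%), against 3.65% of all 27305 promoters and 3.17% of protein-coding ones. It occurred in IFIH1, DDX60 and DDX60L of the 4 induced helicases that had an entry, and not in RIGI. The ETS site CCGGAAG, a frequent word of housekeeping promoters, occurred in 20 of 45 (44.4%), against 10.7% of all promoters and 14.2% of those of protein-coding genes. The STAT site, TTC, any 3 bases and GAA, which serves interferon signalling too, occurred in 5 of 45 (11.1%), against 7.88% of all and 6.97% of protein-coding promoters, and in DDX60 among the induced helicases. The TATA box, TATAAA, was found in 2 of 45 (4.44%), against 12% of all and 9.63% of protein-coding promoters. Other words were searched too. The CRE, TGACGTCA, occurred in 5 of 45 (11.1%, against 2.59% of protein-coding promoters) and the E-box, CACGTG, in 8 (17.8%, against 8.88%). The GC box, GGGCGG, occurred in 27 (60%, against 58.5%) and the CCAAT box in 20 (44.4%, against 36.4%). None of these differences was tested, and the median GC content was 61% for members and 62.7% for protein-coding genes.

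The stretches of 80 bases, all from the 250 before a start, were chosen to set DHX30 and 3 nuclear members with an ETS site beside the single member with a response element, the germ line gene DDX4 and 2 induced helicases. Capitals mark the ETS site in the first 4 and the response element in DHX15, DDX60 and IFIH1. DDX4 has no capitals, since neither word was found there. Each reads 5′ to 3′ on the strand of its gene.
DHX30 (chr3:47802888-47802967, plus strand): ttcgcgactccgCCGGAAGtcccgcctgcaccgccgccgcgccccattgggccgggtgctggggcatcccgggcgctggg
DDX1 (chr2:15591788-15591867, plus strand): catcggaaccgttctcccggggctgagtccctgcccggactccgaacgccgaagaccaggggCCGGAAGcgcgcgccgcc
DDX21 (chr10:68956073-68956152, plus strand): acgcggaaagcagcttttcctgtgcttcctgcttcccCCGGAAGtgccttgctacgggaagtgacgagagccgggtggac
DDX5 (chr17:64506718-64506797, minus strand): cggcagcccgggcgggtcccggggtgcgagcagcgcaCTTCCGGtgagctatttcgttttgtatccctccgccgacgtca
DDX4 (chr5:55766805-55766884, plus strand): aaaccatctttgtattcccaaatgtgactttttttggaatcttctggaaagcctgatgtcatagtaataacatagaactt
DHX15 (chr4:24584725-24584804, minus strand): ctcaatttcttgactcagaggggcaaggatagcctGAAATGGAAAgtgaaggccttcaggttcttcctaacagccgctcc
DDX60 (chr4:168318761-168318840, minus strand): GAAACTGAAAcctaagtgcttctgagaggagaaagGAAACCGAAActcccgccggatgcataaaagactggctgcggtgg
IFIH1 (chr2:162318685-162318764, minus strand): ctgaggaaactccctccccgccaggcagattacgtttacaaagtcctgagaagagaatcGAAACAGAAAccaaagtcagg
A match is a run of letters and not a shown binding site. DHX15, with the word 215 bases before its start, read 1402, 1178 and 1246 in control and 1472, 1434 and 1089 in treatment arrays, a change of 0.05 (-0.39 to 0.50). DDX60, with the word 88 and 53 bases before its start, changed by 2.44.

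Over the whole series, the median intensity per array lay between 77.2 and 84.2, and arrays of the same group correlated at 0.956 to 0.985 (Pearson's r over all clusters). HEK293 markers had summed intensities of 7374 to 7729 in control and 6623 to 7054 in treatment arrays, ranges that do not overlap. All 8 had a control mean above the background band of 50.7. PAX2 lay close to it, with a mean of 56.05 and 44.4 in control replicate 1. Leukocyte markers were under it in 5 of 6 genes, with sums of 279.4 to 340.5 and 290.97 to 409.1, and a median change of 0.07. Of these 6 markers, 3 had a change below 0 and 0 reached an unadjusted p under 0.05. Fibroblast markers were under it in 3 of 6 (sums of 473.03 to 675.5 and 446.6 to 582.6) and hepatocyte markers in 4 of 5 (133.9 to 188.7 and 154.3 to 288.9). The sums of these other cell types overlapped between the groups, but single markers stood apart without passing limma: COL1A2 gave a change of 0.47, PDGFRB 0.64 and COL1A1 -0.46, each with an unadjusted p under 0.05 and separate groups. PDGFRB was under the band in both groups, and COL1A2 lay at it in control, with a mean of 50.8. APOA1 gave 0.58 with overlapping groups and a control mean of 44.9, under the band, and 0 of the 5 hepatocyte markers were below 0. PAX2, a HEK293 marker, gave 0.76 (adjusted p = 0.328 by limma). It went against its list, in which 7 of 8 markers had a change below 0 and the median was -0.15. Their part in the members' values was not tested.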

How the data were processed

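The deposited values are linear intensities, 1 per cluster and array, as their range shows. Per the submitters' processing notes, the authors used Partek, while background correction, normalization, probe summary and genome build are not given in the sources used. Each column was matched to its sample by accession. Genes were named from the platform annotation of 2016, in which 19460 clusters have 1 symbol, 1754 several and 12083 none.

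An offset of 16 was added before log2, since intensities approach 0, so fold changes of dim clusters are understated. All 33297 clusters were fitted with limma 3.58.1 in R 4.3.3 (lmFit and eBayes, two-sided, no block, Benjamini-Hochberg over all clusters). Where a gene has several clusters, the brightest stands for it in lists. Promoters come from RefSeq. The arrays' number limits the precision. On simulated data for this comparison, with 33297 clusters and 50 changed at each fold, the fit called 0% of changes of 1.5-fold, 24% at 2-fold, 88% at 4-fold and 100% at 8-fold. It made 4 false calls. The changed clusters had a control level above 50, and changes were added after the offset and log2, so these shares do not cover dim clusters.

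Members and lists were chosen with earlier results of these data known. Among clusters with a single symbol, named members were the 8 with the lowest p in each direction, those reported for HIV or sensing, DDX4, those with several clusters, and the 3 brightest and 3 dimmest; others, clusters with several symbols included, are given by role to account for every member.

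Alternatives were a plain log2, offsets of 1 and 50, a block for the replicate number, median centring, quantile normalization, 2 filters on dim clusters, 1 cluster per gene, an intensity trend or robust prior, and leaving out each array.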

Additional observations from a re-analysis of the deposited data

How the results depend on the processing

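The count of members past an adjusted p of 0.05 was 0 under all 17 alternatives, and the lowest adjusted p of any member was 0.354 (DHX30, offset 50). The count at an unadjusted p under 0.05, 2 in the fit as reported, was 1 under quantile normalization, an offset of 1, a plain log2, an intensity trend, 1 cluster per gene or without the lowest quartile of clusters, and ran from 0 (where 8.59% of all clusters met the rule) to 4 (10.2%) when single arrays were left out. The median change of the members, -0.16, ran from -0.21 with each array centred on its median to -0.056 with 1 cluster per gene. That last setting keeps 45 clusters, each with a single symbol. The median ran from -0.17 to -0.08 when single arrays were left out. Among all clusters, 124 passed as reported. A plain log2 left 40 and an offset of 1 left 58, and leaving out single arrays gave 69 to 129. The number of members whose interval lay within 2-fold ran from 47 of 54 (plain log2) to 54, and from 51 to 54 without single arrays. Of 28 named members, 19 kept their direction under every alternative that could be fitted, and the other 9, DDX5, DDX6, DDX17, DDX21, DDX24, DDX43, DHX15, DHX36 and DHX57, changed sign under at least 1. Both filters on dim clusters removed DDX43 and DDX53, and the one at the median level removed DDX4 too. The replicate number as a block left 1 member at an unadjusted p under 0.05, DHX30, and 105 clusters passing in all. Same-numbered arrays did not deviate together (correlations of -0.17, 0.08 and -0.36). With 3 arrays a group, these values cannot decide whether same-numbered samples were prepared together. Changes under 2-fold are mostly below what 3 arrays a group can call.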
